A study of Mus musculus with 27 samples.

Results

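Mouse embryonic fibroblasts (MEFs) were driven toward induced cardiomyocytes by a set of 5 cardiac factors (HNGMT, for Hand2, Nkx2-5, Gata4, Mef2c, Tbx5) while the type I TGFβ receptor kinases were blocked by the small molecule SB431542 (SB). The comparison described here is HNGMT+SB against 0TF+SB, the MEFs that received SB without the factors, with 3 cultures in each group, and it asks which genes the factors induced and repressed when the receptor kinase was inhibited. These are 6 of the 27 arrays of the series. Every gene with a probe set of its own was examined, 19938 in all. The 3 cultures of HNGMT with the DMSO vehicle and the 3 of 0TF with DMSO were the only other groups set beside them, and they share no array with the SB groups.

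The treatment protocol, worded alike for the 4 groups, has MEFs transduced with rtTA and a TroponinT-GCaMP reporter, which is read out through a cardiac troponin T promoter. By the same protocol the cultures received 2 µg per mL doxycycline at Day 0, which switches on tetO-driven factors through rtTA, and RNA was taken at Day 3. The HNGMT cultures were transduced 1 day before doxycycline with a separate lentivirus for each factor, and 0.5 µM SB or DMSO was added then. One label field gives an empty vector for the 0TF cultures, another gives no transcription factor, and the extraction protocol speaks of MEFs that were not transduced, so what virus the 0TF cultures received is not settled. The cultures of a group are labelled as independent biological replicates, and how many embryos they came from is not given in the sources used here. Each factor arrives on its own virus, so a culture is a mixture of cells with different sets of factors. In such bulk samples fewer cells of a type and less RNA per cell cannot be told apart.

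Hand2 (basic helix-loop-helix), Nkx2-5 (homeodomain), Gata4 (zinc finger), Mef2c (MADS box) and Tbx5 (T-box) act together in the developing heart, where they bind the regulatory regions of genes for the contractile apparatus, the calcium cycle and the natriuretic peptides. In fibroblasts, TGFβ ligands signal through the kinase that SB blocks and SMAD proteins to genes of the matrix and of the contractile myofibroblast. MEFs also hold cells that can become adipocytes, a fate that TGFβ is known to oppose.

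Values are log2 signals as deposited. A gene was called higher or lower at a fold of at least 1.5 and a limma adjusted p under 0.05 over all genes. Gene medians of the 6 SB arrays lay between 8.49 and 8.55, arrays of the same group correlated at 0.998 to 0.999 over genes, and arrays of different groups at 0.974 to 0.976. Fibroblast transcripts were present in both groups, with Vim, the intermediate filament vimentin, at 14.19 to 14.20 in 0TF+SB and 14.18 to 14.19 in HNGMT+SB. Those levels, and 14.00 to 14.05 for Tnnt2 in HNGMT+SB, lie close to the highest value of each array, 14.29 to 14.37, where a change can be compressed. None of 13 reference genes was called.

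With SB, 1005 genes were higher with HNGMT than without (5.04% of those tested) and 959 were lower (4.81%). Of these, 466 and 426 changed by at least 2-fold, 109 and 84 by at least 4-fold, and 34 and 17 by at least 8-fold. The median log2 fold change over all genes was 0.01. For the gene lists below, the shares of members called stand against these 5.04% higher and 4.81% lower over all genes. In all 1964 called genes the 3 cultures of one group lay apart from the 3 of the other, as they did in 52% of all genes tested. The 15 genes with the largest rises were Nppa, Casq2, Tnnt2, Ankrd1, Dsp, Hspb7, Tac2, Serpind1, Smpx, Popdc2, Mgat4a, Cpxm2, Nppb, Car14 and Myocd. Outside the cardiac genes described below, Serpind1, a plasma protease inhibitor that heparin activates, rose by 4.26, Tac2, the precursor of neurokinin B, by 4.27, and the glycosyltransferase gene Mgat4a and Car14, a carbonic anhydrase of membranes, by 3.85 and 3.77. The 15 with the largest falls were Car3, Cd36, Ndst4, Adipoq, Cacna2d3, Has2, Adh1, Ldb2, Gpd1, Hpse2, Igfbp5, Fbln7, Sncaip, Vstm2a and Retn. Cacna2d3, a calcium channel subunit, was at 10.75, 10.86 and 10.70 in 0TF+SB and at 7.14, 7.08 and 7.10 in HNGMT+SB, Adh1, an alcohol and retinol dehydrogenase, had -3.55, and Ldb2, a partner of LIM-domain factors, -3.46.

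**Figure D1:**
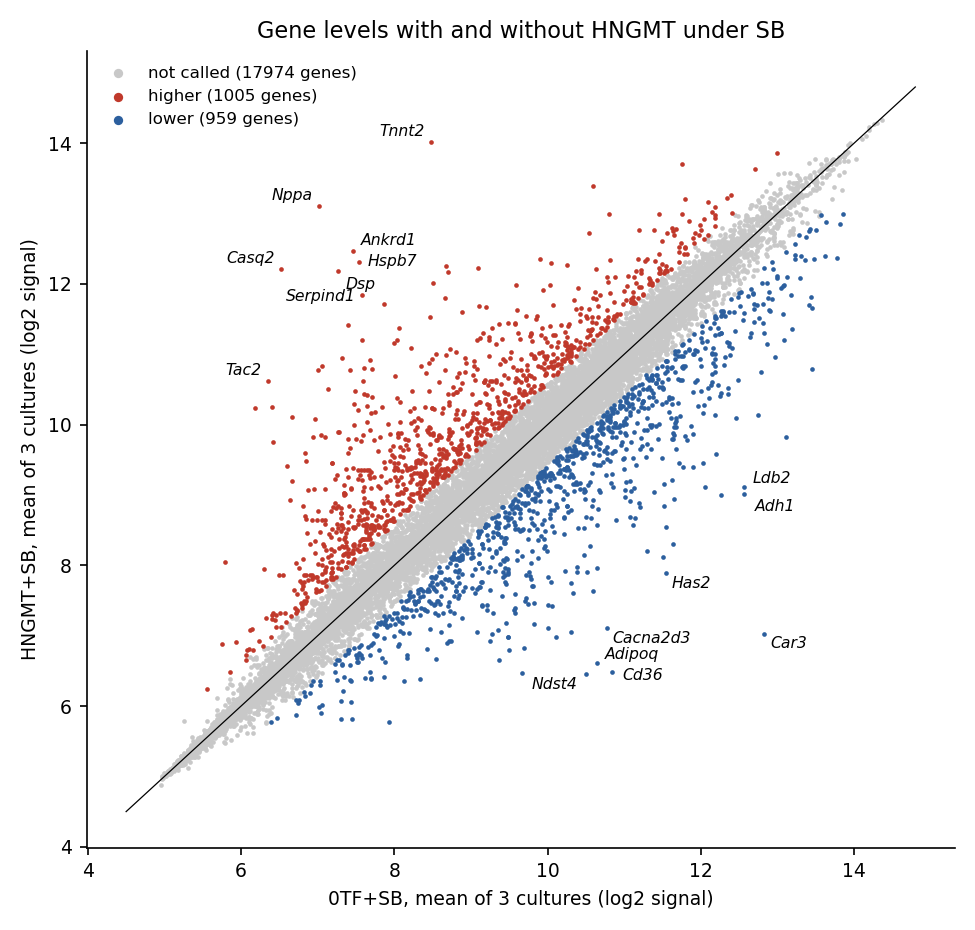
Mean log2 signal of each of 19938 genes in the 3 HNGMT+SB cultures (vertical axis) against the 3 0TF+SB cultures (horizontal axis), with the line of equal levels. The 1005 genes called higher are red, the 959 called lower blue and all others grey, and the 8 genes with the largest changes on each side are named.

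The signals of the delivered factors did not all rise. Hand2 was at 8.85, 9.01 and 8.77 in the 0TF+SB cultures and at 11.57, 11.66 and 11.57 in HNGMT+SB, a rise of 2.72 on the log2 scale (standard error, SE, 0.06, adjusted p = 1.68e-16). Gata4 was at 8.22, 8.59 and 8.45 without and at 8.73, 8.88 and 8.83 with the factors, and its 0.40 (adjusted p = 0.00416) lay under the fold threshold. Nkx2-5 had a log2 fold change of 0.18 with a 95% interval from -0.06 to 0.42 (adjusted p = 0.235). Mef2c was lower by a log2 fold change of -0.47 (adjusted p = 1.19e-05), also under the fold threshold. Tbx5 fell, from 10.68, 10.67 and 10.65 to 9.70, 9.70 and 9.59, with -1.01 (adjusted p = 2.41e-09). MEFs express Tbx5 themselves, as its 0TF+SB levels show. The methods measured Hand2 with a mouse PCR assay and the other 4 factors with human assays, whereas the array is a mouse array. Which part of each transcript its probes cover is not given in the sources used here, so the probes can miss a delivered transcript and do not check whether a factor was expressed.

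Genes of the sarcomere, the repeating unit of actin and myosin filaments that contracts muscle, rose with HNGMT under SB. Of 43 measured members, 24 were higher (55.8%, against 5.04% of all genes) and 0 lower, with a median log2 fold change of 0.65. Tnnt2, cardiac troponin T of the thin filament, was at 8.38, 8.66 and 8.39 in 0TF+SB and at 14.05, 14.01 and 14.00 in HNGMT+SB, a rise of 5.55 (SE 0.07, adjusted p = 2.94e-19) or 46.7-fold. Its partners rose less, Tnni3, cardiac troponin I, by 3.05, Tnni1, the slow and fetal troponin I, by 2.69, and Tnnc1, the calcium-binding troponin C, by 2.33. Actc1, cardiac actin, was at 8.48, 8.81 and 8.83 without and at 12.07, 12.66 and 11.79 with the factors, with 3.47 (SE 0.15, adjusted p = 2.6e-12). As in every called gene, the cultures of neither overlapped between the groups, and 52% of all genes tested lay apart in this way. Ankrd1, a stress-responsive titin-binding repressor, rose by 5.01, and Smpx, a small protein of striated muscle, by 4.05. Tmod1, which caps thin filaments, rose by 3.24, Des, the muscle intermediate filament desmin, by 2.99, and Ldb3, a Z-disc protein, by 2.87.

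Among the myosins, the light chains of the atrium rose, Myl7 by 2.19 and Myl4 by 1.96, and Mybpc3, cardiac myosin-binding protein C, by 1.71. The heavy chains had smaller values. Myh6, the α-myosin heavy chain, was at 7.26, 7.48 and 7.38 in 0TF+SB and at 7.99, 8.78 and 8.07 in HNGMT+SB, a log2 fold change of 0.91 (adjusted p = 4.05e-05). Myh7, the β chain, had 0.14 with a 95% interval from -0.01 to 0.29 (adjusted p = 0.133), so a 1.5-fold change lies outside the interval. HNGMT+SB replicate 2 held the highest level in 14 of the 24 sarcomere genes that rose, replicate 1 in 2 and replicate 3 in 8. Myl2, the ventricular regulatory light chain, was at 8.38 in replicate 2 and at 6.89 and 6.86 in the other HNGMT+SB cultures, against 6.70 to 6.76 in 0TF+SB. Its log2 fold change of 0.65 (adjusted p = 0.0459) fell to 0.14 without replicate 2, and its call was also lost without any 1 of the 0TF+SB cultures (0.63 to 0.67). Actn2, the α-actinin of the Z-disc, went from 0.60 to 0.34 and Myoz2 from 0.59 to 0.25, and these 3 genes were then no longer called, which left 21 of 43. Myl3, the ventricular essential light chain, had 0.55 (adjusted p = 0.125) with all cultures and 0.02 without replicate 2. Myh6 kept its call at 0.66, and Actc1 had 3.23.

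Stretches of 250 bases before the start of Nppa, the natriuretic peptide gene described below, and of 5 sarcomere genes that rose are printed to show the DNA that such factors could read. They were picked after their motifs were seen, and Nppa is not among the list genes counted below. They come from the RefSeq annotation of GRCm38.p6, 5′ to 3′ on the gene's strand, and all lie upstream of the annotated start used. For a gene with several annotated starts the first listed was used, here and in the counts below. Tnnt2 has 2 such starts. Capitals mark AGATAA, 1 form of the letters that zinc finger factors such as Gata4 read (called the GATA letters here). They also mark the letters of T-box factors (AGGTGT) and of NKX2-5 (TNAAGTG), and matches to the MEF2 and CArG (serum response factor) motifs, on either strand. Other GATA forms were not searched or counted, such as the TGATAA in the Nppa and Myl7 stretches, which stays in lower case. Nppa lies on chr4:148000472-148000721 (+), Tnnt2 on chr1:135836084-135836333 (+), Ankrd1 on chr19:36119845-36120094 (-), Smpx on chrX:157698723-157698972 (+), Actc1 on chr2:114052876-114053125 (-) and Myl7 on chr11:5898783-5899032 (-).
Nppa: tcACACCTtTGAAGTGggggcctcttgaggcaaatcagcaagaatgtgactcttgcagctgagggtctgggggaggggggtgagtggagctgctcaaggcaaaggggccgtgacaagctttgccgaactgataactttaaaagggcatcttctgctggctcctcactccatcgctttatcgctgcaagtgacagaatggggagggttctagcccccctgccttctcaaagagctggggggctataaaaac
Tnnt2: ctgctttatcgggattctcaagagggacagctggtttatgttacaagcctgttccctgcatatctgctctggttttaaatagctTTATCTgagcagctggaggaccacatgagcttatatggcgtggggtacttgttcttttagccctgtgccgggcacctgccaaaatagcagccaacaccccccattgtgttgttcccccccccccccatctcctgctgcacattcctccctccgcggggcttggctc
Ankrd1: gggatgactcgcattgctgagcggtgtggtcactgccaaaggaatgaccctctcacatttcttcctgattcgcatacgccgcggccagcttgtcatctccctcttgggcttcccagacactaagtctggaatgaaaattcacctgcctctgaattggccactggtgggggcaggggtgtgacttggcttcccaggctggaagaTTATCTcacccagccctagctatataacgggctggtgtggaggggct
Smpx: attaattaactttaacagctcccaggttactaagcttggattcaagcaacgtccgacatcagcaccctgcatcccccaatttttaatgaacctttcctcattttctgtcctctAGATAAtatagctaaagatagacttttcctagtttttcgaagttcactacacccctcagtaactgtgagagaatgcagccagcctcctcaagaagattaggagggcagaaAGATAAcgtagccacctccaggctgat
Actc1: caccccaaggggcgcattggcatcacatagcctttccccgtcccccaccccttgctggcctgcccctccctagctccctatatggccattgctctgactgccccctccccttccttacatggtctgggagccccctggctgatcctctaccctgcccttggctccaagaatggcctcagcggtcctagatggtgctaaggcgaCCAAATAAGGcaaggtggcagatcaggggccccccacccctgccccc
Myl7: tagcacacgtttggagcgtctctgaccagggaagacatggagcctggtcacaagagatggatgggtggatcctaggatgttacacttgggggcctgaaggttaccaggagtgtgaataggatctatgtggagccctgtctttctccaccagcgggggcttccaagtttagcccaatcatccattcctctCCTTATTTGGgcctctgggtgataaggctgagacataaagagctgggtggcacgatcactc
In Nppa the capitals begin 248 bases before the start with the T-box letters and 241 bases before it with the NKX2-5 letters. GATA letters begin 166 bases before the start of Tnnt2, 47 before that of Ankrd1, and 137 and 27 before that of Smpx. A CArG match begins 47 bases before the start of Actc1 and 61 before that of Myl7. A promoter was held for 15563 of the genes tested, and 37 of the higher genes of the sarcomere, calcium and intercalated disc lists were among them. Of these 37, 9 held the GATA letters (24.3%, against 8.75% of all promoters), 5 a CArG match (13.5% against 1.25%), 3 a MEF2 match (8.11% against 0.495%), 5 the T-box letters (13.5% against 10.9%) and 0 the NKX2-5 letters (9.1% of all). Among the promoters of all 764 genes that rose, the shares were 7.59% for GATA, 2.09% for CArG, 1.57% for MEF2, 13.6% for T-box and 7.59% for NKX2-5, so the share with GATA letters was below that of all promoters. Among 684 promoters of genes that fell, the shares were 7.16% for GATA, 0.731% for CArG, 0.585% for MEF2, 8.63% for T-box and 8.19% for NKX2-5. CANNTG, the E-box that basic helix-loop-helix proteins such as Hand2 read, was held by 73% of the 37, by 63.5% of those of all genes that rose, by 61.8% of all promoters and by 57.9% of those of genes that fell, and an E-box can overlap the T-box letters. These counts describe letters in a short window and do not say which factor was bound, and genes of the same family can share such letters.

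Genes of calcium release and excitation divided. Of 38 measured members, 12 rose (31.6%) and 4 fell (10.5%), with a median of 0.13. Casq2, cardiac calsequestrin, which stores calcium in the sarcoplasmic reticulum, was at 6.40, 6.56 and 6.60 in 0TF+SB and at 12.23, 12.19 and 12.21 in HNGMT+SB, a log2 fold change of 5.69 (SE 0.06, adjusted p = 2.39e-20). Popdc2, a cyclic AMP-binding membrane protein of the heart, rose by 4.02, Gja5, the connexin of atrial and conduction cells, by 2.64, and Pln, which restrains the calcium pump, by 2.53. Hcn4, the pacemaker channel, rose by 2.05 and Ryr2, the calcium release channel, from 7.07, 7.33 and 7.26 to 8.87, 8.90 and 8.89, by 1.67 (adjusted p = 4.03e-13). The pump Atp2a2 itself, which many cell types express, rose by 0.60, just past 1.5-fold. Kcnd2, a potassium channel of the transient outward current, had -2.17 and Slc8a1, the sodium-calcium exchanger of the heart, -1.24. Cacna2d1 and Cacna1g, both of voltage-gated calcium channels, had -1.09 and -0.88. Gja1, the main connexin of ventricle and also of fibroblasts, had -0.11.

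Genes of the intercalated disc, the junction that couples heart muscle cells, gave 12 higher (66.7%) and 0 lower of 18, with a median of 1.09. Dsp, desmoplakin, was at 7.14, 7.19 and 7.47 without and at 12.22, 12.16 and 12.20 with HNGMT, a rise of 4.93 (SE 0.09, adjusted p = 2.86e-17) or 30.4-fold. The desmosomal cadherin Dsc2 rose by 2.82, the plaque protein Jup, plakoglobin, by 1.57, Dsg2 by 1.29, Pkp2, plakophilin 2, by 1.22 and Cdh2, N-cadherin, by 0.79. Desmosomes also join epithelial cells. Of 26 keratinocyte and epithelial markers, 5 rose (19.2%) and 0 fell. They were the keratins Krt7 with 2.77, Krt18 with 1.68, Krt19 with 1.66 and Krt8 with 1.18, and Perp with 0.64. Of 20 epicardial and mesothelial markers, which share 3 of these keratins, 8 rose (40%), Upk3b by 0.94 among them. There 4 fell (20%), with Gata6 at -1.43 and Tbx18 at -0.85. The mean of the keratinocyte and epithelial list was 7.44 to 7.51 in 0TF+SB and 7.82 to 7.89 in HNGMT+SB, and that of the epicardial and mesothelial list 8.40 to 8.45 and 8.63 to 8.65. The part of epithelial or mesothelial cells in the rise of the desmosomal genes was not tested.

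**Figure D2:**
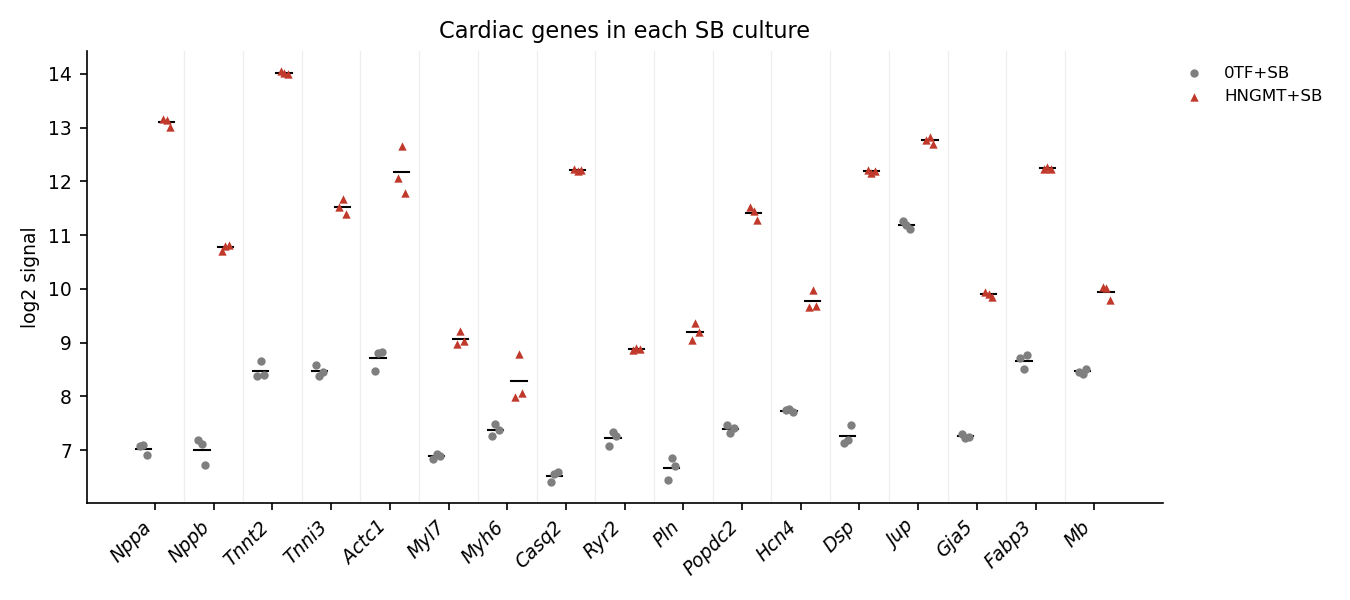
Log2 signal of 17 cardiac genes in each of the 3 0TF+SB cultures (grey circles) and the 3 HNGMT+SB cultures (red triangles), with a bar at the mean of each group. The groups do not overlap for any of these genes, as for every called gene and 52% of all genes. The highest Myh6 and Actc1 points are those of HNGMT+SB replicate 2.

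Nppa and Nppb encode the atrial and B-type natriuretic peptides, hormones of heart muscle. Nppa was at 7.07, 7.09 and 6.91 in 0TF+SB and at 13.17, 13.14 and 13.02 in HNGMT+SB, the largest rise of all genes, 6.09 (SE 0.08, adjusted p = 2.4e-19). Nppb rose by 3.77 and Edn1, the vasoconstrictor endothelin 1, by 2.39. Of 18 genes of cardiac secreted products, 5 rose (27.8%) and 3 fell (16.7%). Those that fell were the growth factors Igf1 with -2.36, Fgf10 with -2.04 and Angpt1 with -1.07. Of 29 genes of cardiac and muscle metabolism, 13 rose (44.8%) and 2 fell (6.9%), with a median of 0.54. Hspb7, a small heat shock protein of heart muscle, rose by 4.78 and Fabp3, which carries fatty acids in muscle, was at 8.51 to 8.77 without and at 12.24 to 12.27 with the factors. Pgam2 and Eno3, the muscle forms of 2 glycolytic enzymes, rose by 2.25 and 1.43, and Mb, myoglobin, by 1.48. The 2 that fell, Cd36 with -4.36 and Lpl with -2.01, take up and release fatty acids and are also genes of adipocytes. Of 24 respiratory chain genes, 1 rose (4.17%, near the 5.04% of all genes), Cox5a with 0.78, and the median was 0.28.

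The regulators of the heart beyond the delivered factors gave 6 higher (14%) and 9 lower (20.9%) of 43. Myocd, myocardin, the coactivator of serum response factor in cardiac and smooth muscle, was at 7.33, 7.21 and 7.41 in 0TF+SB and at 10.92, 10.94 and 10.98 in HNGMT+SB, a rise of 3.63 (SE 0.07, adjusted p = 2.86e-17). Ppargc1a, a coactivator of mitochondrial genes, rose by 2.25, Smyd1, a muscle methyltransferase, by 1.58, and Zfpm1, a cofactor of GATA proteins, by 1.51. Gata6, a close relative of Gata4, fell, with -1.43, as did Zfpm2, the other GATA cofactor, with -1.06, and the homeobox genes Irx5, Irx1 and Irx2 with -1.04, -0.98 and -0.65. Tbx20, a T-box factor of heart muscle, had 0.50 and Isl1, of the second heart field, 0.06, neither called.

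Skeletal muscle shares many of these proteins. Of 33 of its own markers 1 rose (3.03%, near the 5.04% of all genes) and 0 fell (against 4.81% of all genes), with a median of 0.05. The muscle determination factors Myod1 (0.04, 95% interval from -0.13 to 0.20) and Myog (-0.03, interval from -0.17 to 0.10) and Myh3, the embryonic myosin heavy chain (0.03, interval from -0.05 to 0.10), were not called. The gene that rose was Tnnt1, slow skeletal troponin T, with 0.62 (adjusted p = 0.000142), which fell to 0.46 without 0TF+SB replicate 1 and to 0.57 without HNGMT+SB replicate 3 and was then not called.

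Smooth muscle and myofibroblast genes gave 16 higher (59.3%) and 1 lower (3.7%) of 27, with a median of 0.89. Acta2, smooth muscle actin, was at 12.81, 12.45 and 12.88 without and at 13.64, 13.64 and 13.61 with HNGMT, a rise of 0.92 (adjusted p = 1.37e-08). Cnn1, calponin, rose by 1.78, Myh11, smooth muscle myosin, by 1.56, Tagln, transgelin, by 1.16, and the integrins Itga8 and Itga11 by 2.03 and 1.80. Aoc3, an amine oxidase of smooth muscle and fat, fell by 2.67. Several of these are also transcribed in response to TGFβ, the pathway that SB blocks. Of 44 targets of TGFβ, 11 rose (25%) and 9 fell (20.5%), with a median of 0.05. Ccn2, connective tissue growth factor, was at 10.89, 10.72 and 10.75 without and at 12.02, 12.08 and 11.99 with HNGMT under SB, and Skil, a SMAD repressor, rose by 1.28 and Smad7, an inhibitory SMAD, by 0.74. Their groups did not overlap, as was so for 52% of all genes tested. In the same cultures Lox, which crosslinks collagen and elastin, had -1.41, Adam12 -1.34, Snai2 -1.19 and Postn, periostin, -0.86, all called lower. Of 40 genes of the TGFβ and activin pathway, 7 rose (17.5%) and 6 fell (15%). The ligand genes Tgfb3 and Inhba rose by 1.11 and 1.05 and Tgfb2 had -0.65, while Acvr2a, an activin receptor, had -1.54 and Ltbp4, which holds latent TGFβ in the matrix, -1.34.

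**Figure D3:**
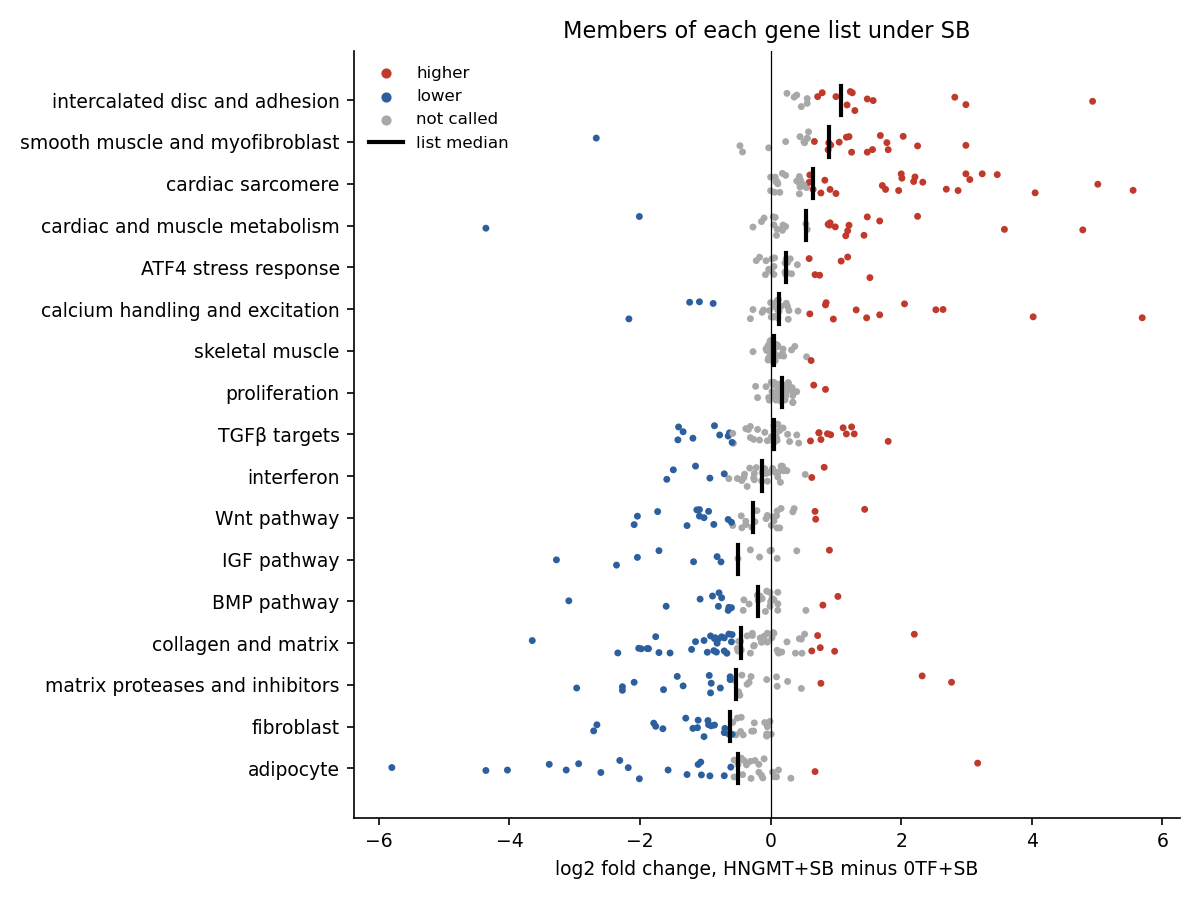
Log2 fold change of HNGMT+SB over 0TF+SB for the measured members of 17 gene lists, 1 point per gene, with red points called higher, blue lower and grey not called, and a black bar at the list median. The medians run from 1.09 for the intercalated disc to -0.62 for fibroblast genes, and a gene can stand on more than 1 list.

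The genes that mark fibroblasts gave 0 higher and 18 lower of 34 (52.9%, against 4.81% of all genes), with a median of -0.62. Dpt, dermatopontin, was at 13.41, 13.48 and 13.45 in 0TF+SB and at 10.83, 10.74 and 10.81 in HNGMT+SB, a log2 fold change of -2.66 (SE 0.08, adjusted p = 2.83e-14). Fap, the fibroblast activation protease, had -2.71 (adjusted p = 2.72e-13), and the surface proteins Cd34, Pdgfra and Thy1 had -1.79, -1.12 and -0.96. As in every called gene, the cultures of these did not overlap between the groups, and 52% of all genes tested lay apart in this way. The mean of the list was 12.16 to 12.18 in the 0TF+SB cultures and 11.36 to 11.40 in HNGMT+SB. Members that were not called include Vim with -0.01 (95% interval from -0.07 to 0.05), S100a4 with -0.29, Col1a1 with -0.26 and Ddr2 with -0.53.

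Many matrix genes were lower too. Of 63 genes of collagens and other matrix proteins, 27 fell (42.9%) and 5 rose (7.94%), with a median of -0.46. Has2, which makes hyaluronan, fell from 11.53, 11.52 and 11.56 to 7.94, 7.79 and 7.93, with -3.65 (SE 0.06, adjusted p = 1.42e-17) or 12.6-fold. Vcan, versican, which binds hyaluronan, had -1.71, Col15a1 -2.34, Nid2 -2.02, Mfap4 -1.87 and Col3a1 -1.02. The genes that rose were Col8a1, a short-chain collagen of vessels, from 10.47 to 10.64 in 0TF+SB to 12.70 to 12.77 in HNGMT+SB, with 2.20, and Tnc, tenascin C, with 0.98, Fbln1 with 0.76, Col18a1 with 0.72 and Col11a1 with 0.63. Of 21 genes of collagen processing, 5 fell (23.8%) and 1 rose (4.76%), with a median of -0.24. Of 28 matrix proteases and inhibitors, 13 fell (46.4%) and 3 rose (10.7%). Mmp9, a gelatinase, had -2.97, Adamts12 and Adamts15 both -2.27 and Timp4 -2.09, while the stromelysin Mmp3 rose by 2.32 and the collagenase Mmp13 by 2.77. Of the genes with the largest falls, Ndst4, a sulfotransferase of heparan sulfate, had -4.05 and Hpse2, a heparanase relative, -3.35.

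Members of several growth factor pathways fell. Of 15 genes of the insulin-like growth factor pathway, 7 fell (46.7%) and 1 rose (6.67%). Igfbp5, a binding protein of the growth factor, was at 13.13, 13.12 and 13.06 without and at 9.88, 9.91 and 9.70 with HNGMT, a log2 fold change of -3.28 (SE 0.11, adjusted p = 3.21e-14). Igf1 had -2.36, Igfbp6 -2.04 and Irs1, the receptor substrate, -1.71, and Igf2r, which clears Igf2, rose by 0.90. Of 36 genes of the Wnt pathway, 12 fell (33.3%) and 3 rose (8.33%), with a median of -0.27. The ligand genes Wnt2 and Wnt5a had -2.09 and -1.02, the agonist Rspo3 -2.04, and the antagonists Dkk2, Sfrp2 and Sfrp1 -1.73, -1.13 and -1.09, while the antagonist Sfrp5 rose by 1.44. Of 31 genes of the BMP pathway, 10 fell (32.3%) and 2 rose (6.45%). The antagonist Chrdl1 had -3.09, the modulator Bmper -1.60, and the target genes Id2, Id4, Id3 and Id1 -0.89, -0.80, -0.65 and -0.64. Of 33 genes that pattern limb and body wall, 9 fell (27.3%) and 0 rose, Emx2 with -1.38, Hoxa13 with -0.95 and Meis2 with -0.89 among them.

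Adipocyte genes held several of the deepest falls. Of 41 measured members, 18 were lower (43.9%, against 4.81% of all genes) and 2 higher, with a median of -0.50. Car3, a carbonic anhydrase abundant in fat, was at 12.79, 12.86 and 12.83 in 0TF+SB and at 7.12, 6.68 and 7.30 in HNGMT+SB, a log2 fold change of -5.80 (SE 0.11, adjusted p = 2.86e-17) or 55.5-fold. Adipoq, the hormone adiponectin, was at 10.74, 10.59 and 10.58 without and at 6.66, 6.59 and 6.57 with HNGMT, and Cd36 fell by 4.36. Plin1, which coats lipid droplets, had -2.60, and the regulators Cebpa and Pparg -2.31 and -1.28. The 2 that rose were Nnat, neuronatin, by 3.17 and Cidea by 0.68. The list's mean was 9.67 to 9.75 in the 0TF+SB cultures and 8.65 to 8.73 in HNGMT+SB. Among the 21 members that were not called, the genes of fatty acid synthesis Fasn, Acaca, Srebf1 and Scd1 had -0.56, -0.56, -0.45 and -0.24.

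Lists of other cell types and functions followed, with shares set against 5.04% higher and 4.81% lower over all genes. Of 30 endothelial genes, 3 rose (10%), Erg with 1.05, Adgrf5 with 0.94 and Flt4 with 0.76. Those that fell were 2 (6.67%), the receptor Tek with -2.56 and Cd34 with -1.79. The defining adhesion genes Pecam1 and Cdh5 had 0.11 and 0.16 and were not called. Of 25 leukocyte genes, 1 rose (4%), the mast cell protease Mcpt4 with 1.66, and 2 fell (8%), Lyz2 with -2.28 and Fcer1g with -0.79. Ptprc, the common leukocyte antigen, had -0.02 and lay at 6.67 to 6.80 in all 6 cultures. Of 28 complement and acute phase genes, 11 fell (39.3%) and 4 rose (14.3%). Among those that fell, Lbp, which binds lipopolysaccharide, had -2.71 and C4b -2.35. Of 41 inflammation genes 6 rose and 5 fell. Of 27 genes of cartilage and bone 3 rose and 4 fell, of 26 of neurons and glia 0 and 4, and of 25 of endoderm and liver 0 and 3. Of 20 genes of the Notch pathway 2 rose, Hes1 with 1.82 and Jag2 with 0.69, and 2 fell.

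Of 42 proliferation genes, 2 rose (4.76%, near the 5.04% of all genes), Cenpa with 0.84 and Kif23 with 0.66, and 0 fell, with a median of 0.18. Mki67, the antigen of cycling cells, had 0.20 (95% interval from 0.08 to 0.31), and Top2a 0.22. Of 24 cell cycle inhibitors and apoptosis genes, 5 rose (20.8%), Gadd45g by 1.69 and Gadd45b by 0.97 among them, and 1 fell (4.17%), Bcl2l11 with -0.69. Of 25 genes of the ATF4 stress response, 6 rose (24%) and 0 fell, Atf3 by 1.52, the amino acid transporter Slc7a5 by 1.18 and Chac1 by 1.08.

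The arrays also hold probe sets for microRNA genes, which read their hairpin or host transcript and not the mature microRNA. Of 296 such genes, 0 rose and 19 fell (6.42%, near the 4.81% of all genes). The largest falls were Mir99a, from 9.55, 9.58 and 9.34 to 6.89, 6.89 and 7.15, with -2.51 (SE 0.12, adjusted p = 7.4e-12), and Mirlet7c-1, from 8.06, 7.98 and 7.76 to 5.76, 5.73 and 5.86, with -2.15. The 2 lie within 1 kb of each other on chromosome 16 (GRCm38.p6, chr16:77598940-77598961 and chr16:77599672-77599693 for the mature 5p arms) in a host gene, Mir99ahg, which fell by 2.18, so the 3 values read transcription of 1 locus. Also lower were Mir181b-1 with -1.24 and its neighbour Mir181a-1 with -0.62, Mir199b with -1.20, Mir199a-1 with -0.78, and Mir15a with -1.16. Their mature sequences from RefSeq are printed 5′ to 3′ with the seed, bases 2 to 8, in capitals, to show which of the falling genes encode the same seed.
miR-99a-5p: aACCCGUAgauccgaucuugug
let-7c-5p: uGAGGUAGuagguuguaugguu
miR-181a-5p: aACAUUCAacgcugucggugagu
miR-181b-5p: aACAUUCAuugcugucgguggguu
miR-199a-3p: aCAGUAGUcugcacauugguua
miR-199b-3p: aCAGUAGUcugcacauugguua
miR-15a-5p: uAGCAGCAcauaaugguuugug
The miR-181 pair shares the seed ACAUUCA and the miR-199 pair CAGUAGU, whereas miR-99a and let-7c, from 1 host transcript, have different seeds. Of the 19 genes, 11 came from the imprinted region between Dlk1 and Dio3 on chromosome 12, a grouping made after the values were seen. All 39 microRNA genes located there had a negative log2 fold change, with a median of -0.40. Of the other 257, 164 had a negative value, the median was -0.03, and 8 were called lower (3.11%). A hairpin position was held for 258 of the 296 genes, and those without one count among the other 257. These 39 lie in long transcripts and are not independent. The protein-coding genes Dlk1 and Rtl1 and the long noncoding RNA Meg3 of that region had -0.96, -0.85 and -0.60, and Dio3 had -0.01.

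Most genes called under SB were also called under DMSO in the same direction. With DMSO, 910 genes were higher (4.56%) and 900 lower (4.51%) with the factors. Called higher in both were 751 genes, 74.7% of the SB list and 82.5% of the DMSO list, and called lower in both were 672, 70.1% and 74.7%. Opposite calls were 2 genes higher under SB and lower under DMSO, and 5 the other way. Nppa had 6.09 under SB and 5.81 under DMSO, Casq2 5.69 and 5.58, and Ankrd1 5.01 and 5.01, with differences of 0.28 (95% interval from 0.06 to 0.51), 0.11 (-0.06 to 0.28) and 0.01 (-0.28 to 0.29). Among the genes that fell, Ndst4 had -4.05 and -4.36, and Dpt -2.66 and -2.63.

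By the interaction in limma, the effect of HNGMT itself was more positive under SB than under DMSO for 178 genes (0.893%) and more negative for 212 (1.06%). Of the 254 genes called higher under SB and not under DMSO, the difference was called for 35, and for 127 it had an adjusted p under 0.05 at any size. Of the 287 called lower under SB and not under DMSO, these numbers were 90 and 194. For the rest a different effect was not shown.

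Of the sarcomere genes, 6 had a larger rise under SB. Actc1 had 3.47 under SB and 2.50 under DMSO (difference 0.96, adjusted p = 0.00767), Tnni3 3.05 and 2.12 (0.93, adjusted p = 3.19e-05), Myl7 2.19 and 1.51 (0.68), Myh6 0.91 and 0.20 (0.71, adjusted p = 0.0377) and Fhl2, a LIM protein, 2.01 and 0.98 (1.03). The difference in Myh6 was 0.45 without HNGMT+SB replicate 2 and no longer called, which left 5 genes, and its call was lost in 7 of the 12 fits without 1 culture (0.45 to 0.71). In Tnnt2 the HNGMT levels were alike, 14.02 with SB and 13.93 with DMSO on average, close to the top of the arrays, and the difference of 0.94 went with 0TF means of 8.48 with SB and 9.33 with DMSO. Fhl2 likewise had HNGMT means of 12.27 and 12.21 and 0TF means of 10.26 and 11.23. In the calcium and excitation list Pln, with 2.53 and 1.07 (difference 1.46, adjusted p = 1.27e-06), Gja5 and Hcn4 rose more under SB, the calcium channel gene Cacna1h differed by 0.62, and 0 of 18 intercalated disc genes differed in either direction.

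**Figure D4:**
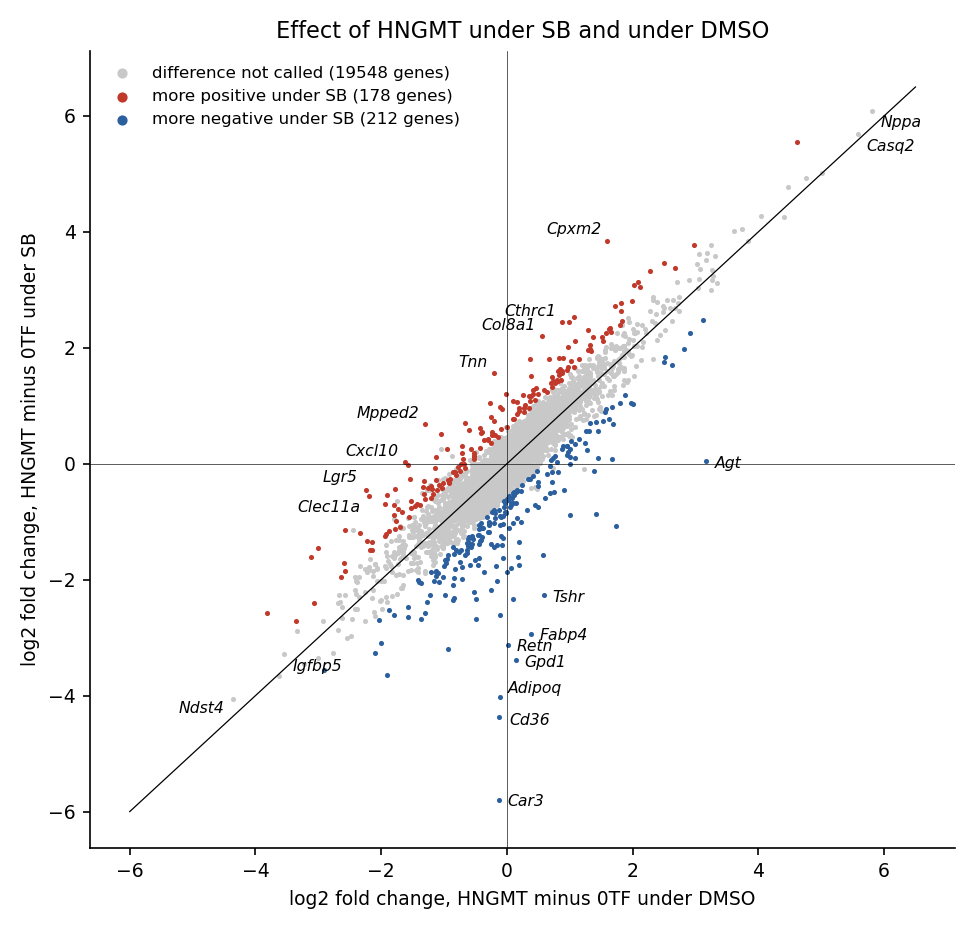
Log2 fold change of HNGMT over 0TF under SB (vertical axis) against that under DMSO (horizontal axis) for 19938 genes, with the line of equal effect. Red marks the 178 genes and blue the 212 genes whose effect differed by the interaction. Car3, Cd36 and Adipoq lie near 0 under DMSO and below -4 under SB.

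The genes whose response was most positive under SB relative to DMSO were Cpxm2, a carboxypeptidase relative (3.85 against 1.60), Mpped2 (0.69 against -1.30), Lgr5, a receptor of R-spondins (-0.45 against -2.24), Tnn, tenascin N (1.56 against -0.21), Cxcl10, an interferon-induced chemokine (0.03 against -1.62), Clec11a (-0.55 against -2.19), Col8a1 (2.20 against 0.56) and Cthrc1, a collagen-associated protein (2.45 against 0.88). In all of these genes but Cxcl10 the SB and DMSO means lay farther apart in 0TF than with HNGMT. Cpxm2 stood at 7.86 in 0TF+SB and 9.87 in 0TF+DMSO on average, and at 11.71 and 11.47 with HNGMT. Lgr5 stood at 10.07 and 11.95 in 0TF and at 9.62 and 9.71 with HNGMT. Col8a1 stood at 10.54 in 0TF+SB and 12.50 in 0TF+DMSO on average, and at 12.73 and 13.06 with HNGMT. Tnn stood at 7.94 and 9.74 in 0TF and at 9.49 and 9.53 with HNGMT. Cthrc1 stood at 9.90 and 12.10 in 0TF and at 12.35 and 12.98 with HNGMT.

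The most negative responses under SB relative to DMSO were those of Car3, Cd36, Adipoq, Gpd1, Fabp4, Retn, Agt and Tshr, and 21 of the 41 adipocyte genes were among the 212. Under DMSO, 2 adipocyte genes fell with HNGMT and 4 rose. Car3 and Adipoq show the form of the largest of these differences, a high level in 0TF+SB alone. Car3 averaged 6.65 in 0TF+DMSO, 6.52 in HNGMT+DMSO, 12.83 in 0TF+SB and 7.03 in HNGMT+SB, and Adipoq 6.57, 6.46, 10.64 and 6.61 in the same order. Col15a1 had the same form, 8.95, 9.04, 11.39 and 9.05. Agt, angiotensinogen, and Dgat2, an enzyme of triglyceride synthesis, differed in another way. Agt averaged 8.33 in 0TF+DMSO and 11.51, 11.61 and 11.65 in the other 3 groups in that order, so HNGMT raised it by 3.17 under DMSO and by 0.04 under SB. Dgat2 rose by 1.74 under DMSO and fell by 1.07 under SB.

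**Figure D5:**
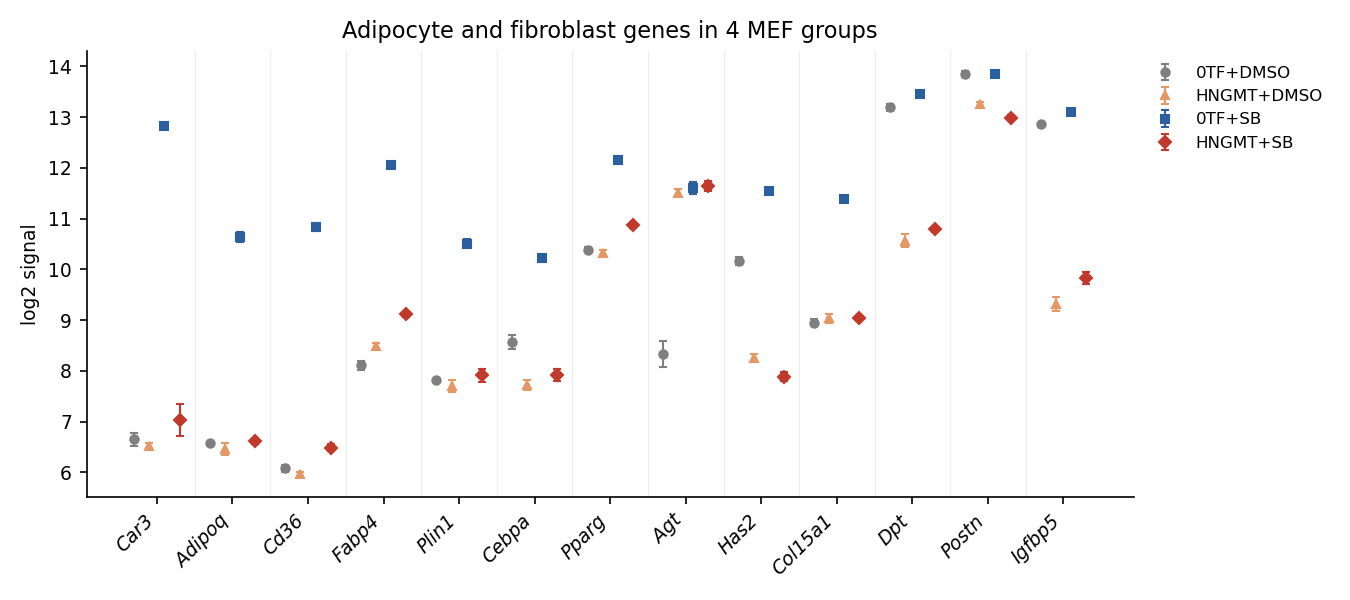
Mean log2 signal of 13 adipocyte, fibroblast and matrix genes in 0TF+DMSO (grey circles), HNGMT+DMSO (orange triangles), 0TF+SB (blue squares) and HNGMT+SB (red diamonds), with bars of 1 SD over 3 cultures. Car3, Adipoq, Cd36 and Col15a1 are high in 0TF+SB alone, Agt is low in 0TF+DMSO alone, and Dpt, Postn and Igfbp5 are lower with HNGMT under both treatments.

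Of 37 interferon-induced genes, 5 fell (13.5%) and 2 rose (5.41%, near the 5.04% of all genes) with HNGMT under SB, and 17 fell and 0 rose under DMSO. The difference was called for 7, all more positive under SB. Mx1, an antiviral GTPase, was at 9.42, 8.54 and 7.83 in the 0TF+SB cultures and at 7.23, 7.59 and 7.52 in HNGMT+SB, a log2 fold change of -1.15 under SB against -2.57 under DMSO (difference 1.42, adjusted p = 0.0469). That difference lost its call in 9 of 12 fits without 1 culture (1.04 to 1.53), and the count of 7 became 3 without 0TF+SB replicate 3, 4 without 0TF+DMSO replicate 2 and 11 without 0TF+SB replicate 1. The 0TF+SB cultures varied here, with list means of 11.15, 10.80 and 10.64 against 10.64 to 10.68 in HNGMT+SB, and without 0TF+SB replicate 1 the counts under SB were 4 lower and 3 higher. Slfn5 had -1.59 and -1.90, and Oas2 -0.71 and -1.38, with the second not called under SB when 0TF+SB replicate 1 was left out.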

How the data were processed

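RNA of 18 MEF arrays in 6 groups of 3 (Affymetrix Mouse Gene ST, which reads whole transcripts) entered the fit. The deposited log2 values were made by the authors with MAS5 and PartekGS per the labels, and the normalization is not given in the sources used here. Depth does not apply to arrays, and the number of arrays limits precision. Of 35556 probe sets, 21789 had a single gene symbol, 1621 several and 12146 none in the platform annotation, and for 999 genes with several probe sets the one with the highest mean over all arrays was kept, which left 19938 genes.

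The fit used limma 3.58.1 in R 4.3.3 with 1 coefficient per group (12 residual degrees of freedom), eBayes and Benjamini-Hochberg adjustment over all genes, and every adjusted p is from it. A call needed an adjusted p under 0.05 and a fold of at least 1.5, two-sided. SB was compared with DMSO by the interaction contrast. Named were the 15 largest changes in each direction, the delivered factors, up to 6 called members per list and direction by p, the 8 largest differences in each direction, and further list members with their values. The members and gene lists were chosen with earlier results of these data known, and of the listed names 62 had no probe set of their own symbol. Lists share members. Replicate numbers were checked for pairing, as the correlation of deviations of same-numbered 0TF+SB and HNGMT+SB cultures, and gave -0.09, -0.24 and -0.14. The arrays of cardiac fibroblasts and of TGFβ1-treated MEFs are not described here, though the latter share the estimate of spread. The script was tested on simulated data. Figures were drawn with matplotlib 3.10.9.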

Additional observations from a re-analysis of the deposited data

Results flagged for a closer look

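The effect of HNGMT differed between SB and DMSO by the interaction test in limma for the genes with the largest differences, given here as the log2 fold change under SB minus that under DMSO. More positive under SB were Cpxm2 with 2.25, Mpped2 with 1.99, Lgr5 with 1.79, Tnn with 1.77, Cxcl10 with 1.65, Clec11a with 1.65, Col8a1 with 1.64 and Cthrc1 with 1.57. More negative under SB were Car3 with -5.66, Cd36 with -4.23, Adipoq with -3.91, Gpd1 with -3.54, Fabp4 with -3.32, Retn with -3.15, Agt with -3.13 and Tshr with -2.87. For Cxcl10 the 0TF+SB cultures varied from 9.23 to 10.68, and the difference (adjusted p = 0.019) was no longer called without 0TF+DMSO replicate 1 (1.57, adjusted p = 0.0524) or replicate 2 (1.45, adjusted p = 0.0583).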

How the results depend on the processing

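The fold threshold moved the counts most. At 2-fold, 466 genes were higher and 426 lower with HNGMT under SB, 397 and 382 under DMSO, and 45 more positive and 70 more negative in the difference. With no fold threshold these were 4330 and 4010, 4301 and 3765, and 824 and 857. Leaving out 1 culture at a time gave 986 to 1050 higher and 924 to 978 lower genes under SB. The labels do not say whether the replicate numbers pair the cultures. With the number as a replicate block, 1005 genes were higher and 959 lower under SB, and 178 and 214 in the difference. Fitting all 27 arrays gave 996 and 951 under SB and 124 and 177 in the difference, and quantile normalization 974 and 1003 under SB. The changes of the fold threshold are left out of the next tally, since a gene called at under 2-fold loses its call at 2-fold. Over named genes, 4857 of 4911 values under the other alternatives kept the result of the main fit, called or not called. Direction was compared only for genes called in the main fit, and 0 of their values reversed. Of all values, 46 lost their call and 8 gained one. Among those that lost it, Actn2 had 0.52 without 0TF+SB replicate 1, Myoz2 0.58 without 0TF+SB replicate 2, Bst2 0.54 to 0.58 without any 1 of 3 cultures and Perp 0.58 without HNGMT+SB replicate 2, and Myl3 gained a call at 0.81 to 0.83 without HNGMT+SB replicate 1 or 3. The cause was not tested. Signals near the top or the bottom of the arrays limit how far a fold change can be read.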
